A study of Mus musculus with 12 samples.

Results

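The genes described here encode the proteins of the mitochondrial ribosome. They were taken as every gene whose mouse symbol starts with Mrpl or Mrps followed by a digit, with pseudogenes left out, which gave 78 of the 27179 genes in the count files. Of these, 49 are Mrpl genes (named for the large subunit) and 29 are Mrps genes (named for the small subunit), and 76 had enough reads to be tested.

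RNA of leukemic bone marrow cells was sequenced in 12 libraries of AML246, a single acute myeloid leukemia of C57BL/6 background that is p53-/-, carries a hairpin against PU.1 (shPU.1) linked to GFP, and is described as cytogenetically normal. Doxycycline (Dox) shuts the hairpin off, and PU.1, a transcription factor of myeloid maturation encoded by Spi1, is restored over days. The groups of 3 libraries each were untreated cells sorted as GFPhigh, Dox day 2 cells sorted as GFPhigh-mid, Dox day 4 cells sorted as GFPmid and Dox day 6 cells sorted as GFPlow. The p53 loss and the hairpin construct are shared by all groups, so the untreated cells are leukemic cells with PU.1 held low and not healthy marrow. The sort gate moved with the days, so gate, Dox and time cannot be told apart. The labels call the host a leukemic recipient and give neither its age nor the cells it still has. The labels leave the kind of replicate unclear, technical by their titles and separate mice by the design text, so p-values here cover only the spread among libraries that may be technical repeats.

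The mitochondrial ribosome makes the few proteins that mitochondrial DNA encodes, all of them parts of the respiratory chain and ATP synthase. Its ribosomal RNAs come from mitochondrial DNA, while every one of its proteins is encoded in the nucleus, made in the cytosol and imported. Some of these proteins descend from bacterial ribosomal proteins and others were added in mitochondria. Acute myeloid leukemia cells have been reported to depend on mitochondrial translation, and neutrophils are known to hold few mitochondria.

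Promoters of nuclear genes for mitochondrial proteins are known for binding sites of ETS factors such as GABP and of NRF1. A core ETS motif (CCGGAAG, searched on both strands) was present between 250 bases before and 50 bases after the start in 25 of the 69 mitoribosomal genes with a RefSeq window (36.2%), against 9.12% of 27025 windows of all genes and 19.6% of 9399 windows of genes tested. Below are the 100 bases before the start of 5 of these genes, read on the gene's strand from the RefSeq GRCm38.p6 table, chosen because the core lies within them and no annotated gene does. The capitals mark the core. All 5 genes shown were lower at day 6, while of the 14 genes with the core in these 100 bases 8 were lower, 1 (Mrpl43) was higher and 5 were not called, so the 5 are not typical of the 14.
Mrpl3, chr9:105053168-105053267, plus strand: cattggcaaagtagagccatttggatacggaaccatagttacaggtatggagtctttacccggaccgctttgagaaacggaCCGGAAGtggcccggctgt
Mrpl34, chr8:71464826-71464925, plus strand: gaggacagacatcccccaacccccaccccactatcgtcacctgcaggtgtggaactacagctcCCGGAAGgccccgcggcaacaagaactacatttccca
Mrpl52, chr14:54426809-54426908, plus strand: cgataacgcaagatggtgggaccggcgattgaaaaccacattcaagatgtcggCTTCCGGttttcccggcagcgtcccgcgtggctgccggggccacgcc
Mrps18a, chr17:46110904-46111003, plus strand: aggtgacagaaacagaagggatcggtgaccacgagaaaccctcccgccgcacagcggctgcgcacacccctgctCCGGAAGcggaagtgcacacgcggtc
Mrps22, chr9:98601680-98601779, minus strand: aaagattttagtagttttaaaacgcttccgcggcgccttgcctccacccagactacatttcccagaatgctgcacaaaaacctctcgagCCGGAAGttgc

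The first base of the core lies 19 bases before the start of Mrpl3, 37 before Mrpl34, 47 before Mrpl52, 26 before Mrps18a and 11 before Mrps22. In Mrpl52 the core is on the other strand. The median log2 fold change at day 6 against untreated was -0.39 in the 25 tested genes with the core and -0.38 in the 42 without it. An NRF1 core (GCATGCGC) was found in 8 windows (11.6%, against 2.80% of all and 5.66% of tested windows), and a core of YY1 (AAGATGGCG), another factor known at such promoters, also in 8 (11.6%, against 1.49% and 3.48%). Of the 8 genes with the YY1 core, 6 carry it after the start, beginning 11 to 36 bases downstream. The E-box CACGTG, which MYC can bind, was in 5 windows (7.25%, against 7.24% and 10.5%), and a core of PU.1 sites (GAGGAAG) in 8 (11.6%, against 13.5% and 13.7%). The SP1 box GGGCGG was in 34 (49.3%, against 35.9% and 64.5%) and CCAAT in 27 (39.1%, against 37.9% and 39.6%). The day 6 medians of tested genes with and without the motif were -0.26 (33 genes) and -0.51 (34) for the SP1 box. They were -0.50 (7) and -0.34 (60) for the YY1 core and -0.38 (8) and -0.39 (59) for NRF1. The E-box gave -0.29 (4) and -0.39 (63), PU.1 -0.37 (8) and -0.39 (59), and CCAAT -0.39 (25) and -0.37 (42). No difference between these medians was tested. Motifs may share letters with each other, and a match does not show that a factor binds.

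Mrpl46 and Mrps11 encode a large and a small subunit protein and are transcribed away from each other. Their starts lie 42 bases apart, and the whole interval between them is shown because both genes share it.
Interval between Mrpl46 and Mrps11, chr7:78783090-78783130, plus strand: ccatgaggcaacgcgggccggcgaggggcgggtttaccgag

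Library totals ran between 4918920 and 7356166 counts, and 3 counts corresponded to 0.393 to 0.640 CPM (reads scaled to a fixed library size with TMM factors), a floor that covers counting error only. The mean level of Spi1 was 62.5 CPM (untreated), 109.6 CPM (day 2), 260.1 CPM (day 4) and 458.1 CPM (day 6), and its libraries did not overlap between any 2 groups. The mean level of Trp53 was 42.8 CPM (untreated), 42.1 CPM (day 2), 30.0 CPM (day 4) and 15.7 CPM (day 6), and a whole-gene count does not test its deletion. Day 6 replicate 2 stood apart from its group, with a variance against replicates 1 and 3 of 42.5 and 37.1 times counting error, where the other pairs of replicates gave 2.57 to 10.2. The 8 blast and progenitor markers summed to 8317 to 10408 CPM at day 6, against 28970 to 32935 CPM in untreated cells. Ptprc, which encodes CD45 of blood cells, had 609 ± 65.4 CPM at day 6, against 14.4 ± 9.52 CPM in untreated cells (SD, n = 3). Erythroid markers summed to at most 5.71 CPM, B cell markers to at most 2.99, megakaryocyte markers to at most 9.04, T and NK cell markers to at most 113.9 and stromal and endothelial markers to at most 128.8.

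The mitoribosomal genes took a smaller share of the reads as the days went on. They held 0.327%, 0.350% and 0.325% of the counts of the untreated libraries. The day 2 libraries had 0.324%, 0.310% and 0.330%, those of day 4 had 0.280%, 0.271% and 0.272%, and those of day 6 had 0.164%, 0.219% and 0.162%. Day 2 overlapped untreated, and every day 4 and day 6 library lay below all of both. A share of the library also falls when other genes gain reads, and the highest 10 genes of each library held 9.63% to 15.6% of counts at day 6 against 5.86% to 6.18% in untreated cells. After TMM scaling the summed level was 3011 ± 186 CPM (untreated), 2850 ± 51.9 CPM (day 2), 2676 ± 29.5 CPM (day 4) and 2330 ± 227 CPM (day 6; SD, n = 3 each). The ratio of large to small subunit counts was 2.40 ± 0.0150 (untreated), 2.33 ± 0.0863 (day 2), 2.33 ± 0.0369 (day 4) and 2.47 ± 0.0401 (day 6). In bulk samples fewer cells with a high level and less RNA per cell cannot be told apart.

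**Figure D1:**
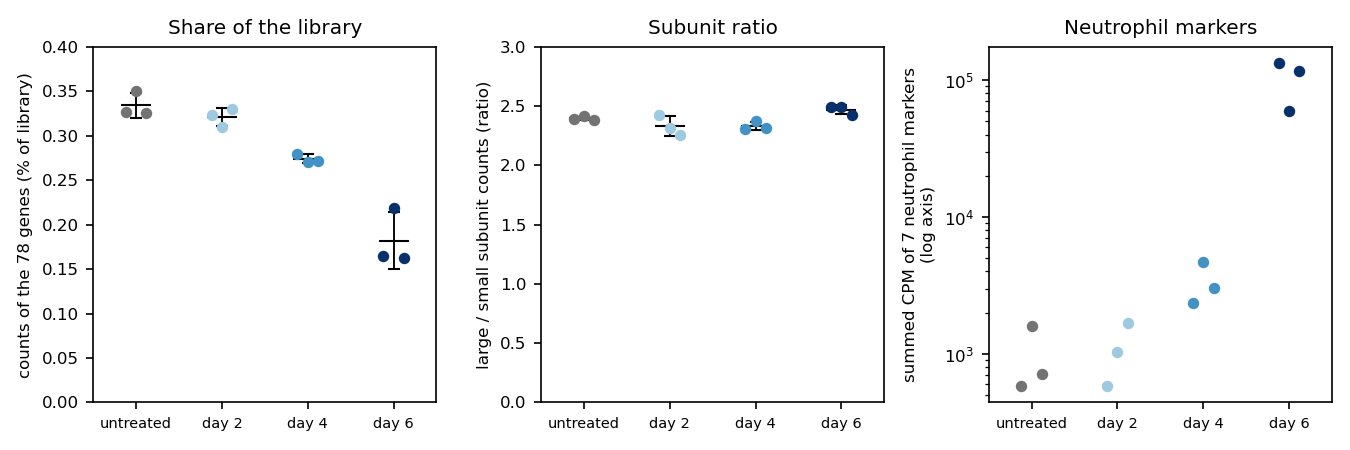
Left, counts of the 78 mitoribosomal genes as a percent of each library. Middle, the ratio of large to small subunit counts. Right, summed CPM of 7 neutrophil markers on a log axis. Points are libraries, bars the mean and SD of 3. The share is 0.162% to 0.219% at day 6 and 0.325% to 0.350% in untreated cells, the ratio stays between 2.26 and 2.50, and the marker sum is highest at day 6.

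Neutrophil markers were highest on day 6, when the mitoribosomal share was lowest. The 7 markers (S100a8, S100a9, Ngp, Camp, Ltf, Mmp8 and Cxcr2) summed to 580, 1599 and 711 CPM in the untreated libraries and 579, 1024 and 1674 CPM in those of day 2. Their sums were 2360, 4676 and 3015 CPM on day 4, then 133320, 59378 and 117015 CPM on day 6. Within day 6, replicate 2 had the lowest marker sum and the highest mitoribosomal share. Within day 4, replicate 2 had the highest sum and the lowest share, and replicate 1 the lowest sum and the highest share. Within the untreated group (replicate 2) and within day 2 (replicate 3), the library with the highest marker sum also had the highest share, so the order ran the other way there. The 7 monocyte markers summed to 3547 to 4797 CPM (untreated), 3745 to 4890 CPM (day 2) and 7743 to 7977 CPM (day 4), then to 3369, 6804 and 3456 CPM on day 6. In untreated cells that sum was carried largely by Ly6c2 (4168 ± 653 CPM, SD, n = 3). Ly6c2 had 1969 ± 229 CPM at day 6 and was the 1 monocyte marker that was lower then. The other 6 were higher, with a median log2 fold change of 3.71 over the 7 markers, among them Fcgr1 (6.66) and Ctss (4.66). They carried more of the sum at day 6, with Ctss at 946 ± 683 CPM, against 37.3 ± 15.5 CPM in untreated cells. No marker gene present in the count files was at 0 in all libraries, and of 7 erythroid markers listed 6 were present. The part of these cell states in the mitoribosomal change was not tested.

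By read count per gene length (RPKM), levels in untreated cells spanned 4.55 to 181.3 among the 76 genes tested, with a median of 28.8. Mrpl33, a small protein of the large subunit, was highest with 181.3 ± 7.94 RPKM, followed by Mrps21, a small subunit protein, with 158.0 ± 8.17 (SD, n = 3). Mrps15, which has a bacterial relative of the small subunit, came next with 102.2 ± 12.1 RPKM, then Mrpl20 with 94.8 ± 19.4 and Mrpl30 with 89.0 ± 12.3. Mrps15 differed from Mrpl20, and Mrpl20 from Mrpl30, by less than the SD of either gene. Mrpl23, a protein at the exit of the peptide tunnel, was lowest of the genes tested with 4.55 ± 1.87 RPKM in untreated cells. Its counts are uncertain, since near-identical sequence elsewhere in the annotation covers 68.9% of its transcript. The median over the tested genes was 29.1 RPKM at day 2, 28.1 at day 4 and 21.4 at day 6. At day 6 Mrps21 (200.9 ± 6.20 RPKM) and Mrpl33 (197.9 ± 10.3) could not be ranked beyond their spread.

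The 2 genes below the filter on low counts were Mrpl36, a small protein of the large subunit with 0 to 0.30 CPM in all 12 libraries, and Mrps36 with 0.28 to 1.77 CPM. Mrps36 was named as a ribosomal protein and is now known as a part of the alpha-ketoglutarate dehydrogenase complex. Mrpl36 stayed under the level of 3 counts in every library, so no change in it was detectable at this depth.

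At day 6 most mitoribosomal genes that changed were lower. Of the 76 tested, 44 (57.9%) were lower than in untreated cells, against 32.9% of all 12057 genes tested, and 3 (3.95%) were higher, against 35% of all genes (edgeR quasi-likelihood test, adjusted p under 0.05). The other 29 were not called. The median log2 fold change was -0.41 over the 76 genes and -0.00029 over all genes tested, and 68 of the 76 lay below 0. Falls of at least 2-fold were no more common than elsewhere, with 8 genes (10.5%) against 15.2% of all genes, and 1 gene, Mrps18c, rose by as much (against 16.9% of all genes). The 44 falls ran between -1.40 and -0.29 on the log2 scale, with a median ratio of day 6 to untreated of 0.618. The last gene called was Mrps23 (adjusted p = 0.0396) and the first not called was Mrpl14 (adjusted p = 0.0547, log2 fold change 0.22).

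**Figure D2:**
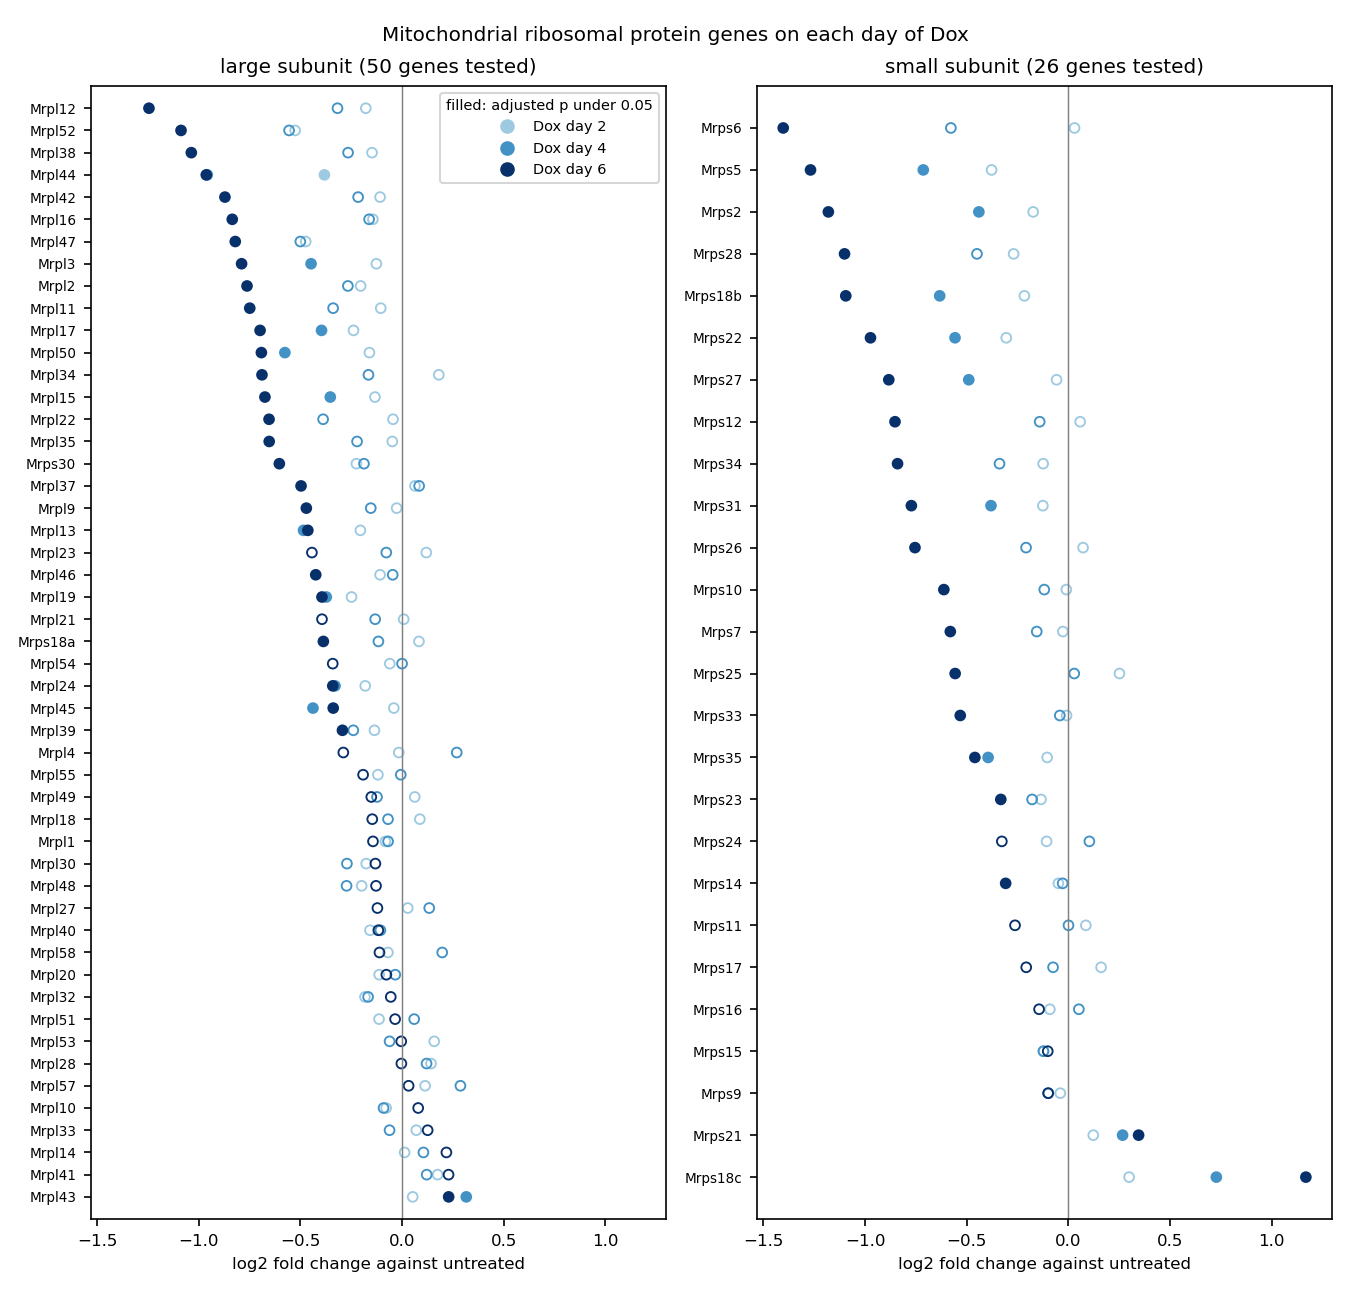
Log2 fold change against untreated of each tested gene of the large (left) and small (right) subunit at Dox day 2, 4 and 6. Filled points passed an adjusted p of 0.05 (edgeR quasi-likelihood). Dark day 6 points lie left of 0 for 68 of 76 genes, and Mrps18c at the foot of the small subunit panel is the furthest to the right at 1.17.

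The scaling sets how many genes are called. Under upper-quartile scaling, 62 mitoribosomal genes were lower and 1 higher at day 6, against 5323 lower and 3173 higher of all 12057. With library totals alone 73 were lower and 1 higher, against 6764 lower and 2283 higher of all 12057. These scalings moved the median of all genes at day 6 by -0.25 and -0.52, and the share of all calls that were higher was 37.35% and 25.2%, against 51.6% with TMM. Relative to the median of all genes, the mitoribosomal median was -0.41 with TMM, -0.41 with upper-quartile scaling and -0.405 with library totals. A change of scaling shifts all genes of a comparison by nearly the same amount, so these values could hardly have differed and are no test. Leaving out each library in turn gave 38 to 49 lower genes at day 6. Of the 44 genes lower at day 6, 37 were called in all 21 other settings, and the 7 lost in at least 1 were Mrpl37, Mrpl39, Mrpl46, Mrpl47, Mrps14, Mrps18a and Mrps23.

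Each library can also be set against the 3 untreated ones. At day 2, 26, 35 and 21 of the 76 genes lay below all 3 (34.2%, 46.1% and 27.6%, against 28.4%, 29% and 26.9% of all genes). At day 4 it was 38, 48 and 41 genes (50%, 63.2% and 53.9%, against 37.6%, 39.5% and 40%). At day 6 it was 60, 48 and 62 genes (78.9%, 63.2% and 81.6%, against 43.8%, 42.9% and 43.6%), fewest in replicate 2. Genes whose 3 libraries all lay below the 3 untreated ones numbered 11 at day 2 (against 12.5% of all genes), 32 at day 4 (against 29.2%) and 45 at day 6 (against 33.9%).

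**Figure D3:**
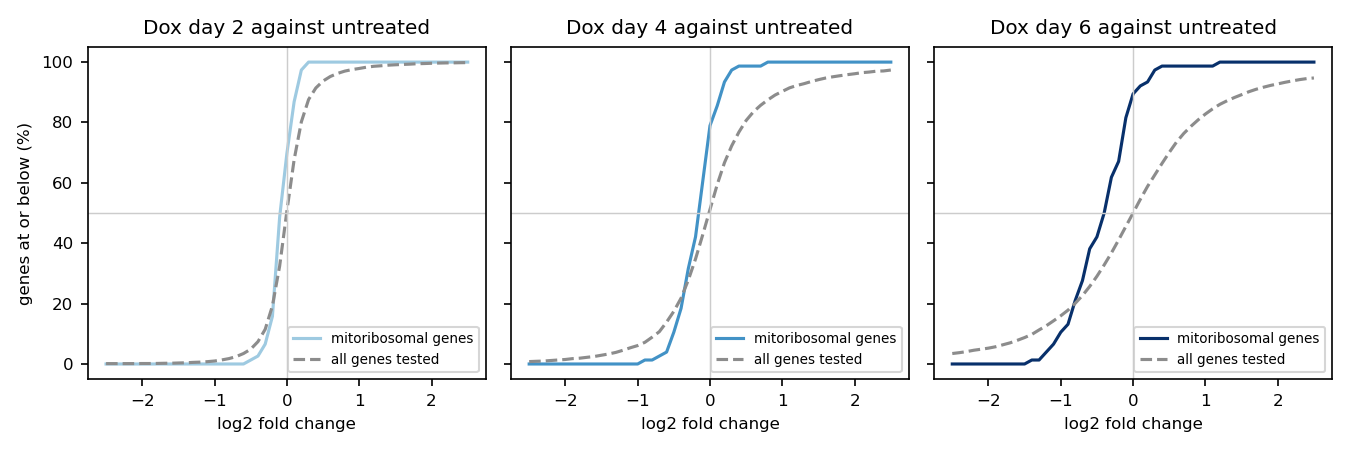
Percent of genes at or below each log2 fold change against untreated, for the 76 mitoribosomal genes (solid) and all 12057 genes tested (dashed), at Dox day 2, 4 and 6. The solid curve lies left of the dashed one around the middle at day 6, where the medians are -0.41 and -0.00029, and it lacks the long tails of all genes.

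The fall built up late. At day 2, 1 gene was lower (1.32%, against 0.406% of all genes) and 0 were higher (against 1.05%), with a median log2 fold change of -0.09, against -0.0038 over all genes. At day 4, 16 genes were lower (21.1%), close to the 20.2% of all genes, and 3 were higher (3.95%, against 22.1%). The median at day 4 was -0.15, against -0.015 over all genes, and 60 of the 76 genes lay below 0. All 16 genes lower at day 4 were also lower at day 6, which was the rule over all genes too. Of the 2440 genes lower at day 4, 2101 were lower at days 4 and 6 and 47 on all 3 days. Another 28 mitoribosomal genes were called lower at day 6 without a call at day 4. Lower at day 6 alone were 36.8% of the 76, against 14.8% of all genes. These comparisons share the untreated libraries. The number lower at day 4 was 9 without untreated replicate 2 or without day 4 replicate 3, and at most 23 without any other single library.

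Between consecutive days, 5 genes were lower at day 4 than at day 2 (6.58%, against 10.2% of all genes) and 1 was higher (1.32%, against 15%). The 5 were Mrpl3, Mrpl13, Mrpl44, Mrpl45 and Mrpl50, and the 1 higher was Mrpl43. At day 6, 23 genes were lower than at day 4 (30.3%, against 22.6%) and 0 were higher (against 23.6%). Of these 23, 22 were also lower at day 6 than in untreated cells, and the other was Mrpl4. Mrpl3 was the gene lower in both steps. The counts for the steps rest on single libraries. Without day 6 replicate 2, 39 genes were lower at day 6 than at day 4, against 3431 of all 12238 genes tested. Without that library 12 were lower at day 4 than at day 2, against 1882. The number lower at day 6 than at day 4 was 10 without day 6 replicate 1 and 9 without day 6 replicate 3. All genes gave 1988 of 12255 and 1998 of 12216, so both shares of the 76 fell below those of all genes. Without day 4 replicate 1 or 3 the number was 15, against 2084 of 12276 and 2287 of 12234. The number lower at day 4 than at day 2 was 2 without day 2 replicate 2, day 4 replicate 2 or day 4 replicate 3, and 3 without day 2 replicate 1, day 2 replicate 3 or day 4 replicate 1.

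Over all genes tested 32.9% were lower and 35% higher at day 6, and the counts by subunit and position below are to be read against these shares. Of the subunits, 26 of 50 large subunit genes were lower and 1 higher at day 6 (median log2 fold change -0.36), and 18 of 26 small subunit genes were lower and 2 higher (median -0.57). The subunits follow the position of the protein and not the symbol, so Mrps30 and Mrps18a count with the large subunit. Among proteins with a bacterial counterpart, 15 of 29 in the large subunit and 8 of 16 in the small subunit were lower, with medians of -0.39 and -0.32. Among proteins classed as specific to mitochondria, 11 of 21 in the large subunit were lower (median -0.34). All 10 such genes of the small subunit were lower, with a median of -0.76. These are Mrps18b, Mrps22, Mrps23, Mrps25, Mrps26, Mrps27, Mrps31, Mrps33, Mrps34 and Mrps35. Mrps18b is classed here, and Mrps18a with those of the large subunit, although both are related to a bacterial protein. Counts of Mrps18b, Mrps25 and Mrps34 are uncertain, since near-identical sequence elsewhere in the annotation covers 65.3%, 75.7% and 54.9% of their transcripts. No test was made of the difference between these classes.

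The 6 largest falls at day 6 among the 76 genes held 5 small subunit genes. Mrps6 (ID 121022, chr16:92058336-92112227), a protein of the platform of the small subunit, had 2.99, 6.59 and 3.51 CPM at day 6, against 10.8, 14.3 and 10.3 CPM in untreated cells. Its values at day 2 were 10.02, 12.3 and 13.9 CPM and at day 4 7.80, 7.73 and 8.22 CPM. The groups of day 6 and untreated did not overlap, and the log2 fold change was -1.40 ± 0.26 (SE; edgeR adjusted p = 0.00042). The gene overlaps Slc5a3 on the same strand over 29138 bases, so reads could be shared between them.

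Mrps5 (ID 77721, chr2:127587426-127603986), related to the bacterial protein S5, had 7.89, 14.6 and 8.79 CPM at day 6, against 27.5, 26.7 and 22.3 CPM in untreated cells. At day 2 it had 19.1, 19.4 and 20.3 CPM and at day 4 16.8, 14.4 and 15.4 CPM. Every day 2 library lay below every untreated one, although the day 2 difference was not called (log2 fold change -0.38, edgeR adjusted p = 0.37). The fall was -0.71 ± 0.18 at day 4 (adjusted p = 0.0074) and -1.27 ± 0.19 at day 6 (adjusted p = 7.8e-05).

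Mrpl12 (ID 56282, chr11:120484637-120488754), the protein of the stalk that contacts translation factors, had 12.8, 22.8 and 14.3 CPM at day 6, against 32.3, 46.2 and 41.1 CPM in untreated cells. It had 36.3, 30.8 and 38.4 CPM at day 2 and 36.0, 29.3 and 30.7 CPM at day 4, so its level came down between days 4 and 6. That step measured -0.93 ± 0.20 on the log2 scale (edgeR adjusted p = 0.0029), and day 6 against untreated measured -1.25 ± 0.20 (adjusted p = 0.00014).

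Mrps2 (ID 118451, chr2:28465951-28471177), a protein of the small subunit body with a bacterial relative, had 24.7, 28.3 and 21.1 CPM at day 6, against 54.2, 59.2 and 55.2 CPM in untreated cells. Its values at day 2 were 52.1, 48.3 and 49.0 CPM and at day 4 40.8, 42.7 and 40.7 CPM, and no group overlapped the next. The log2 fold change at day 6 was -1.18 ± 0.11 (edgeR adjusted p = 9.6e-07). Mrps28 (ID 66230, chr3:8802146-8923857) had 4.48, 8.04 and 5.47 CPM at day 6, against 9.93, 16.1 and 13.1 CPM in untreated cells (log2 fold change -1.10 ± 0.27, adjusted p = 0.0026). These groups did not overlap either.

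**Figure D4:**
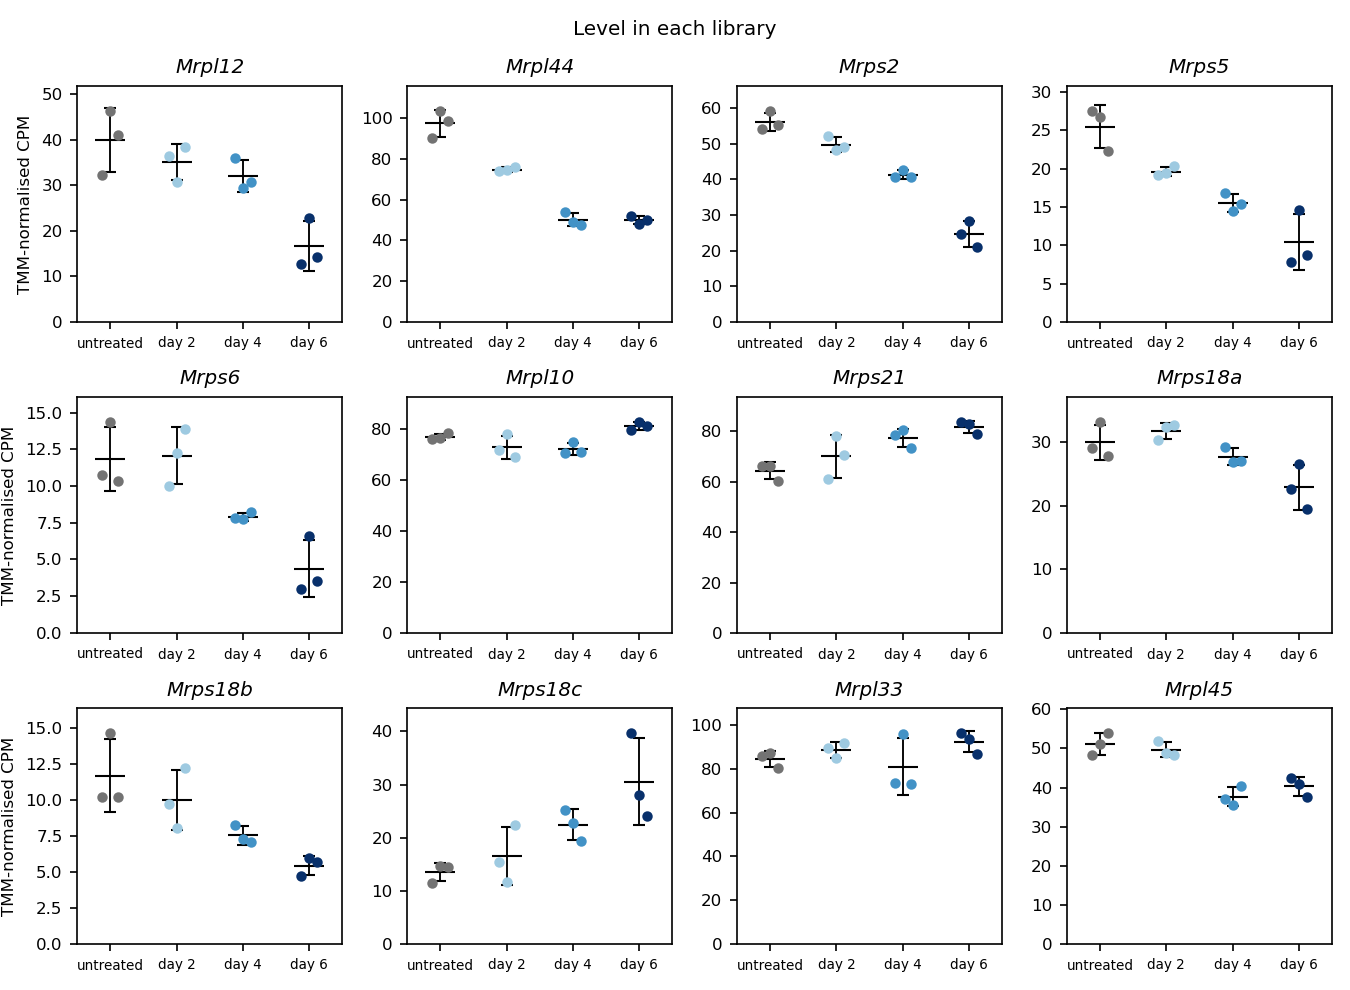
TMM-normalised CPM of 12 mitoribosomal genes in each library, with the mean and SD of 3 per group. Mrpl12, Mrps2, Mrps5, Mrps6 and Mrps18b are lowest at day 6, Mrpl44 averages 50.1 CPM at day 4 and 49.95 CPM at day 6, Mrps18c is highest at day 6, and Mrpl10 stays between 68.9 and 82.8 CPM.

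The Mrps18 genes are related copies of a bacterial small subunit protein whose products sit at different places in the mitochondrial ribosome, and they went different ways. Mrps18c (ID 68735, chr5:100798759-100804467), the copy at the bacterial position, had 39.7, 28.0 and 24.01 CPM at day 6, against 11.5, 14.6 and 14.5 CPM in untreated cells. It had 15.3, 11.7 and 22.4 CPM at day 2 and 25.2, 22.7 and 19.4 CPM at day 4. Day 4 and day 6 lay above untreated without overlap, and the log2 fold change was 0.73 ± 0.24 at day 4 (edgeR adjusted p = 0.026) and 1.17 ± 0.24 at day 6 (adjusted p = 0.0008). The day 4 call was lost without day 4 replicate 1 (adjusted p = 0.0822), day 4 replicate 2 (0.0619) or untreated replicate 1 (0.0981). The day 6 rise was called in all 21 other settings.

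Mrps18b (ID 66973, chr17:35910380-35916440), a small subunit protein, had 4.69, 5.95 and 5.66 CPM at day 6, against 10.2, 14.6 and 10.2 CPM in untreated cells. Its log2 fold change was -0.63 ± 0.20 at day 4 (edgeR adjusted p = 0.024) and -1.09 ± 0.21 at day 6 (adjusted p = 0.0006). The day 4 call was lost without untreated replicate 2 (0.117), day 4 replicate 2 (0.0778) or day 4 replicate 3 (0.0804). Near-identical sequence elsewhere in the annotation covers 65.3% of its transcript, so its counts are uncertain. Mrps18a (ID 68565, chr17:46111004-46128908), a large subunit protein, had 22.6, 26.5 and 19.5 CPM at day 6, against 29.1, 33.1 and 27.9 CPM in untreated cells. The difference was -0.39 ± 0.12 (adjusted p = 0.013), and it was not called without day 6 replicate 3 (0.0642) or untreated replicate 2 (0.0571).

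The other genes that rose were Mrps21 and Mrpl43. Mrps21 (ID 66292, chr3:95862634-95871514) had 83.6, 82.8 and 78.9 CPM at day 6, against 66.2, 66.3 and 60.5 CPM in untreated cells, a log2 fold change of 0.35 ± 0.09 (edgeR adjusted p = 0.0056). Its day 4 libraries, at 78.6, 80.3 and 73.2 CPM, also lay above untreated, but the day 4 call (0.27, adjusted p = 0.036) was lost when any untreated library or day 4 replicate 1 or 2 was left out, with adjusted p of 0.0571 to 0.114. Mrpl43 (ID 94067, chr19:45005014-45006442), a large subunit protein, had 41.97, 40.2 and 41.95 CPM without Dox and 44.5, 40.5 and 43.6 CPM on day 2. It had 53.6, 49.7 and 51.2 CPM on day 4 and 52.0, 48.1 and 45.5 CPM on day 6, both above untreated without overlap. The log2 fold change was 0.32 ± 0.08 at day 4 (adjusted p = 0.0091) and 0.23 ± 0.08 at day 6 (adjusted p = 0.029). The day 6 call was lost without day 6 replicate 1 (0.109) or without untreated replicate 1 (0.0531), 2 (0.078) or 3 (0.0503). It was also lost with DESeq2 (0.0578), without the filter on low counts (0.0739) and with only the groups compared (0.13). Its rise over day 2 at day 4 (0.26, adjusted p = 0.036) was lost without any one library of either group, with adjusted p of 0.0633 to 0.122. With library totals both genes had negative values at day 6 (Mrps21 -0.17, Mrpl43 -0.29), and with upper-quartile scaling Mrpl43 was at -0.021 and Mrps21 was not called (0.096, adjusted p = 0.381). Near-identical sequence elsewhere in the annotation covers 54.1% of the Mrps21 transcript, so its counts are uncertain.

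Mrpl44 (ID 69163, chr1:79776018-79781445), a large subunit protein with a ribonuclease III-like fold, was the gene called at day 2. It had 90.3, 103.3 and 98.4 CPM without Dox and 73.8, 74.3 and 75.9 CPM on day 2. Its levels were 53.7, 49.1 and 47.4 CPM on day 4, then 51.8, 48.1 and 49.98 at day 6. Day 2 lay between untreated and day 4 without overlap, and days 4 and 6 overlapped. Its log2 fold changes against untreated were -0.38 ± 0.08 at day 2 (edgeR adjusted p = 0.034), -0.96 ± 0.08 at day 4 (2.9e-06) and -0.96 ± 0.08 at day 6 (6e-07). Day 6 against day 4 measured -0.0048 (adjusted p = 0.97). The day 2 call was lost, with adjusted p of 0.06 to 0.151, when any untreated or day 2 library or day 4 replicate 2 was left out, and without the filter on low counts it was 0.0555. Without day 6 replicate 2 a second gene, Mrpl52, was also lower at day 2.

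Mrpl45 and Mrpl50 were also lower at day 4 than at day 2, with no call between day 6 and day 4. Mrpl45 (ID 67036, chr11:97314923-97329920), which lies at the tunnel exit and helps bind the ribosome to the inner membrane, had 48.2, 51.1 and 53.9 CPM without Dox and 51.8, 48.9 and 48.2 CPM on day 2. It had 37.1, 35.6 and 40.4 CPM on day 4 and 42.4, 41.0 and 37.7 CPM on day 6, and these groups overlapped each other but not the earlier ones. It fell by 0.44 at day 4 (edgeR adjusted p = 0.0018) and by 0.34 at day 6 (adjusted p = 0.0046) on the log2 scale against untreated. Mrpl50 (ID 28028, chr4:49512597-49521083), a large subunit protein found in mitochondria alone, had 47.9, 46.5 and 40.1 CPM without Dox and 38.7, 42.6 and 39.1 CPM on day 2. It had 32.0, 29.6 and 28.6 CPM on day 4 and 27.7, 30.4 and 24.99 CPM on day 6, again apart from the earlier groups. Against untreated it fell by 0.58 at day 4 (adjusted p = 0.00093) and by 0.69 at day 6 (adjusted p = 9.6e-05). For Mrpl50 the step between day 2 and day 4 (-0.42, adjusted p = 0.013) was lost without day 2 replicate 2 (0.0524), day 4 replicate 2 (0.0541) or day 4 replicate 3 (0.0588).

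The stalk of the large subunit, which recruits translation factors, was uneven. Besides Mrpl12, Mrpl11 was lower at day 6 (14.7, 26.4 and 16.01 CPM, against 29.8, 37.3 and 29.9 CPM in untreated cells, log2 fold change -0.75 ± 0.20, edgeR adjusted p = 0.0052). Mrpl10 (ID 107732, chr11:97041582-97049213), which anchors Mrpl12 to the ribosome, had 79.8, 82.8 and 81.4 CPM at day 6, against 76.0, 76.6 and 78.4 CPM in untreated cells. Its log2 fold change was 0.08 ± 0.07 (adjusted p = 0.35), and with library totals it was -0.44. Mrpl53 and Mrpl54, the other proteins of the list, were not called, so 2 of 5 stalk genes were lower, against 32.9% of all genes. Counts of Mrpl53 are uncertain, since near-identical sequence elsewhere in the annotation covers 100% of its transcript.

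Around the tunnel exit, where the new peptide leaves the large subunit, 5 of 6 genes were lower at day 6, against 32.9% of all genes (Mrpl17, Mrpl22, Mrpl24, Mrpl45 and Mrpl47). Mrpl24 had 37.5, 41.1 and 35.5 CPM at day 6, against 49.1, 45.2 and 50.6 CPM in untreated cells (log2 fold change -0.34 ± 0.09, edgeR adjusted p = 0.0062). The sixth, Mrpl23, had 1.49, 1.61 and 2.73 CPM at day 6, against 1.56, 2.64 and 3.74 CPM in untreated cells, and was not called (-0.44 ± 0.40, adjusted p = 0.34). Counts of Mrpl22 and Mrpl23 are uncertain, since near-identical sequence elsewhere in the annotation covers 86.0% and 68.9% of their transcripts. In the central protuberance 2 of 7 genes were lower, Mrpl38 and Mrpl46, which is no more than the 32.9% of all genes. Mrpl38 had 13.6, 26.4 and 13.7 CPM at day 6, against 33.8, 39.95 and 37.9 CPM in untreated cells (-1.04 ± 0.22, adjusted p = 0.0011). Its step from day 4 (-0.77, adjusted p = 0.013) was not called without day 6 replicate 1 (0.054) or 3 (0.0572). Mrpl58, a peptidyl-tRNA hydrolase built into the large subunit, had 31.8, 36.8 and 28.7 CPM at day 6, against 34.6, 34.1 and 36.6 CPM in untreated cells (-0.11 ± 0.13, adjusted p = 0.45).

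Mrps12, related to the bacterial protein at the decoding site, had 19.0, 27.3 and 20.3 CPM at day 6, against 37.9, 40.2 and 43.0 CPM in untreated cells (log2 fold change -0.85 ± 0.13, edgeR adjusted p = 6.7e-05). Mrps30, a large subunit protein despite its name, had 29.0, 30.2 and 31.6 CPM at day 6, against 46.2, 45.4 and 46.5 CPM in untreated cells (-0.60 ± 0.09, adjusted p = 9.1e-05). Neither gene was called at day 4. Among the most abundant genes, Mrps15 had 87.0, 89.2 and 92.0 CPM at day 6, against 84.9, 107.6 and 95.1 CPM in untreated cells, and Mrpl33 had 96.2, 93.5 and 86.9 CPM, against 85.9, 87.3 and 80.3 CPM. The log2 fold changes were -0.10 ± 0.09 for Mrps15 and 0.13 ± 0.10 for Mrpl33, and neither was called. With library totals Mrpl33 was at -0.39. Mrpl33 lies inside a noncoding gene of the same strand, Gm38424, so its counts are uncertain.

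Of the genes whose promoters are shown above, Mrpl3 had 32.6, 44.8 and 38.8 CPM at day 6, against 64.1, 73.1 and 64.6 CPM in untreated cells (log2 fold change -0.79 ± 0.11, edgeR adjusted p = 3.5e-05). Mrpl52 had 5.54, 14.6 and 7.42 CPM, against 20.1, 18.2 and 21.6 CPM (-1.09 ± 0.26, adjusted p = 0.0024). Mrpl34 measured -0.69 ± 0.15 and Mrps22 -0.97 ± 0.17. At the interval shown, Mrpl46 had 15.8, 18.5 and 12.3 CPM at day 6, against 19.3, 24.1 and 19.4 CPM in untreated cells (-0.42 ± 0.15, adjusted p = 0.024), and Mrps11 had 14.7, 20.3 and 13.7 CPM, against 19.3, 21.6 and 17.8 CPM (-0.26 ± 0.16, adjusted p = 0.17). These genes except Mrps18a were named after their values were seen.

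Divergent starts are common among these genes. Of the 78, 32 (41.0%) have a start within 1000 bases of the start of a gene on the other strand that is transcribed away from or across it, against 23.8% of 11844 placed genes tested. Of the 31 partners tested, 10 were higher and 10 lower at day 6, near the shares of all genes tested (35% higher and 32.9% lower). In 5 of the 31 pairs both genes were called in the same direction and in 4 in opposite directions. No such count was made for pairs of other genes. Mrpl46 and Mrps11 are each other's partner and count from each side. Mrps12 and its partner Sars2, a mitochondrial seryl-tRNA synthetase, were both lower (-0.85 and -0.95). Mrpl44 was lower (-0.96) while Wdfy1 was higher (0.79, adjusted p = 0.0022). Mrps5 (-1.27) has as partner Zfp661 (-0.77, adjusted p = 0.016), Mrps18b (-1.09) has Ppp1r10 (0.25, adjusted p = 0.061), and Mrps18c (1.17) has Helq (0.37, adjusted p = 0.06). Mrpl43 (0.23) overlaps by 780 bases Twnk, the mitochondrial DNA helicase, which was lower (-1.68, adjusted p = 9.2e-07 by edgeR). The strand setting of the counting is not stated in the sources used, so reads of overlapping genes on opposite strands may not have been told apart.

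**Figure D5:**
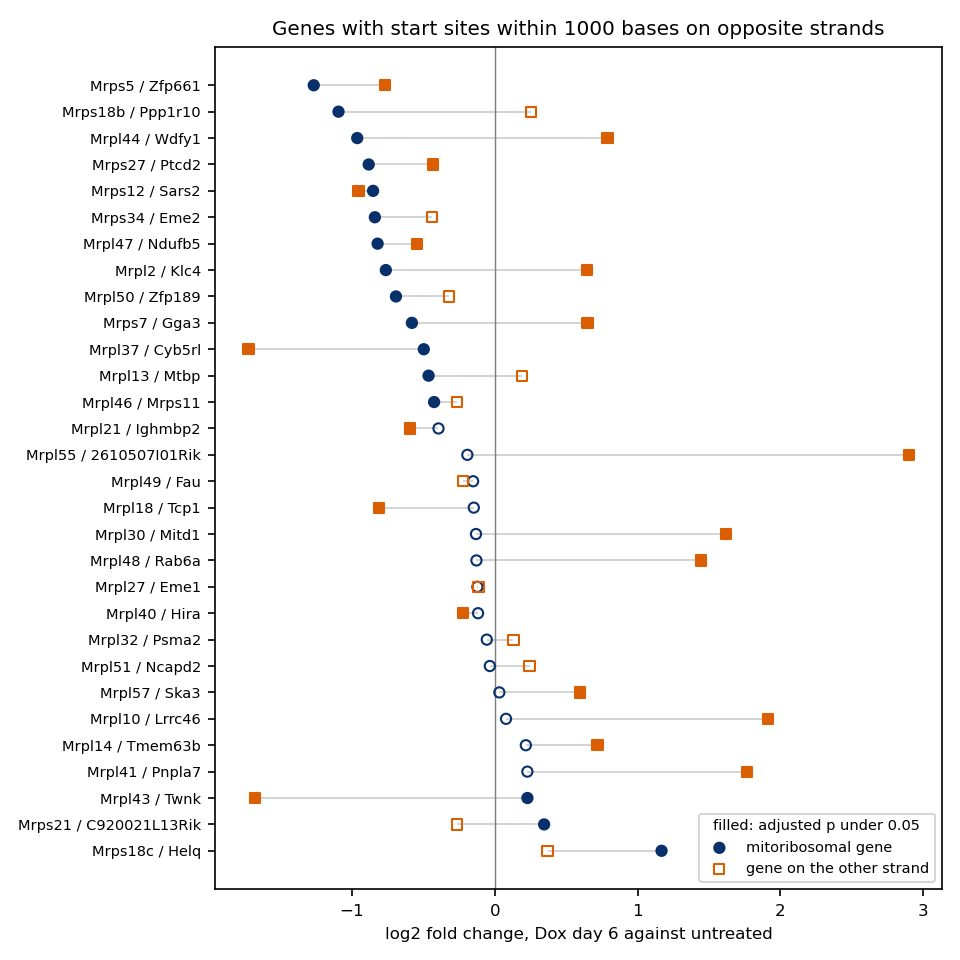
Log2 fold change at Dox day 6 against untreated for 30 mitoribosomal genes (circles) and the gene that starts within 1000 bases on the other strand (squares), joined by a line. Filled marks passed an adjusted p of 0.05. Partners lie on both sides of 0, with 10 called higher, where 35% of all genes tested were higher. The lower calls include Mrpl46, drawn as a circle beside its partner Mrps11.

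Other genes of mitochondrial translation were counted in the same comparison of day 6 with untreated cells. Of 5 mitoribosomal proteins with other symbols, 4 were lower and 1 higher. Gadd45gip1, a large subunit protein, had 12.6, 20.1 and 12.7 CPM at day 6, against 35.5, 43.2 and 35.1 CPM in untreated cells (log2 fold change -1.31, edgeR adjusted p = 1.8e-05). Ptcd3, Chchd1 and Dap3, all of the small subunit, measured -0.83, -0.72 and -0.51. Aurkaip1, also of the small subunit, was higher with 144.2, 133.9 and 144.7 CPM, against 91.0, 97.4 and 99.3 CPM (0.55, adjusted p = 7.6e-05).

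All 17 mitochondrial tRNA synthetases had a value below 0 and 16 were lower (median log2 fold change -0.69), among them Ears2 (3.21 ± 1.66 CPM at day 6, against 13.7 ± 0.723 in untreated cells), Nars2 and Vars2. Of 16 translation factors 9 were lower and 1 higher (median -0.43). Gatb, Mrrf, the ribosome recycling factor, and Tufm, the elongation factor Tu, measured -1.17, -1.13 and -0.82, and Mtif3, an initiation factor, measured 0.50. Of 26 assembly factors 16 were lower and 2 higher (median -0.55), with Rcc1l at -1.70, Mrm1 at -1.37, Fastkd2 at -1.31, Mterf4 at 0.49 and Rbfa at 0.39. All values named in this paragraph passed the edgeR quasi-likelihood test, whose shares over all genes stand above.

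Genes of mitochondrial DNA transcription and RNA handling were lower in 11 of 16 cases and higher in 1 (median log2 fold change -0.53), with Prorp at -1.90, Lrpprc at -1.40, Elac2 at -1.09 and Ptcd1 at 0.45. Of 19 genes of protein import 17 were lower and 0 higher (median -0.82), with Timm8a1 at -1.86, Hspa9 at -1.68 and Hspd1 at -1.66. At day 4, 10 of 17 tRNA synthetases, 10 of 16 transcription and RNA genes, 10 of 19 import genes, 7 of 26 assembly factors and 2 of 16 translation factors were lower, and 0 of them were higher, against 20.2% lower and 22.1% higher over all genes. The counts of translation and assembly factors were near or below that share.

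Among known regulators of mitochondrial gene expression, Myc had 324.7, 253.2 and 253.0 CPM without Dox and 166.0, 223.1 and 205.5 CPM on day 2. It had 128.6, 127.4 and 76.8 CPM on day 4 and 26.0, 50.3 and 28.9 CPM on day 6, and days 2, 4 and 6 did not overlap. Its log2 fold change at day 6 was -2.97 (edgeR adjusted p = 2.4e-06). Ppargc1a had 0.213, 0.161 and 1.17 CPM at day 6, against 4.96, 3.76 and 3.59 CPM in untreated cells, and was called lower. Its first 2 day 6 libraries lie below the level of 3 counts, so no fold is given. Ppargc1b (-3.12), Polrmt, the mitochondrial RNA polymerase (-0.91), and Tfam, which packs mitochondrial DNA (-0.48), were also lower. Nrf1 and Gabpa, whose protein is the DNA-binding part of GABP, were higher: Nrf1 had 84.0 ± 9.48 CPM at day 6 and 57.3 ± 3.23 CPM in untreated cells (0.55), and Gabpa had 138.1 ± 7.53 and 107.3 ± 2.69 CPM (0.36). Esrra was higher too, with 55.2 ± 0.854 CPM at day 6 and 21.5 ± 3.31 CPM in untreated cells (1.36; SD, n = 3 each). That made 5 regulators lower and 3 higher of 8. Whether any of them bears on the mitoribosomal genes was not tested.

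Over the 4 groups together, 42 of the 76 mitoribosomal genes were called (55.3%, against 68.7% of all genes). Of the 76 genes 0 were called in opposite directions in 2 of the 5 comparisons, against 4.93% of all genes. In the comparisons with untreated cells, 29 genes were called on no day (38.2%, against 27.1% of all genes). At day 6 alone 28 were lower (36.8%, against 14.8%), at days 4 and 6 15 (19.7%, against 17.4%) and on all 3 days 1 (1.32%, against 0.390%). Higher at days 4 and 6 were 3 (3.95%, against 18.0%). Across the 76 genes the day 6 log2 change had a Spearman correlation of 0.185 with the untreated RPKM level and of -0.150 with gene length, given as a description, since the genes share their libraries.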

How the data were processed

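The deposited files hold raw read counts per Entrez gene, whole numbers with no normalisation by the authors, with a gene length for each gene. Per the submitters' processing notes, the tools were featureCounts, limma 3.22.0, edgeR 3.8.2 and CASAVA 1.8.2, with mm10 as build and no step given for any. RNA came from a QIAGEN column kit and Illumina libraries, per the labels' protocols. Neither the aligner nor the strand setting is given in the sources used here. Symbols came from RefSeq GRCm38.p6 for 25275 identifiers and GENCODE for 18. The 1886 unnamed ones held 0.487% to 1.06% of a library's counts.

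Counts were fitted in R 4.3.3 with edgeR 4.0.16 (filterByExpr, TMM, robust quasi-likelihood, group as the only term, all 12 libraries), two-sided, with a call at an adjusted p under 0.05 (Benjamini-Hochberg over all 12057 genes tested). CPM use TMM-scaled library sizes, and RPKM divide CPM by the deposited length. The coefficient of variation between replicates was 14.3%, with TMM factors of 1.02 to 1.15 and at day 6 of 0.737, 0.847 and 0.749. Alternatives were DESeq2 1.42.0, limma voom (limma 3.58.1), RLE, upper-quartile and no scaling factors, no filter, a filter of 5 CPM in 3 libraries, the compared groups alone, a block for replicate number, and leaving out 1 library at a time.

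The members and lists were chosen with earlier results of these data known. Genes named are a set by role, the highest and lowest levels, the largest changes per comparison, genes below the filter, and up to 3 called genes per direction of each other list. Overlapping genes and near-identical copies (BLAST 2.17.0, at least 97% identity over 100 bases) came from the annotation. By these criteria 36 of the 78 genes had a copy, and in 10 it covered at least 50% of the transcript.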

Additional observations from a re-analysis of the deposited data

How the results depend on the processing

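With DESeq2, limma voom, RLE scaling and the stricter filter, every count of mitoribosomal genes called stayed within 1.5 times its value. With upper-quartile scaling, 1 gene was higher at day 6, and Mrpl43 at day 6 changed sign (-0.021). At day 6 against day 4, 40 were then lower, against 3949 of all 12057. At day 4 against day 2, 8 were lower and 0 higher, against 1897 and 1479 of all 12057. With library totals, 73 genes were lower and 1 higher at day 6, 1 was higher at day 4, and 74 were called over the 4 groups. At day 6 against day 4, 69 were lower in that setting, against 6263 of all 12057. At day 4 against day 2, 11 were lower and 0 higher, against 2312 and 1251 of all 12057. With library totals 75 of the 76 genes lay below 0 at day 6 against untreated, where TMM gave 68, and 75 at day 6 against day 4, where TMM gave 63. Among the genes of the naming rule, those that changed sign were, at day 6 against untreated, Mrpl10 (-0.44), Mrpl33 (-0.39), Mrpl43 (-0.29) and Mrps21 (-0.17), and at day 6 against day 4, Mrpl10 (-0.23), Mrpl45 (-0.30), Mrps15 (-0.38) and Mrps21 (-0.32). These scalings moved the median of all genes, as given above. Without a filter, 0 genes were lower at day 2 and 3 were lower and 0 higher at day 4 than at day 2. With only the groups compared, 12 were lower and 2 higher at day 4 than at day 2, against 2002 and 2304 of all 11632. At day 6 against day 4, 11 were lower in that setting, a smaller share than the 2034 of all 11517. The cause was not tested.

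Replicate numbers did not pair the samples: residuals of same-numbered libraries correlated by 0.006 on average over 18 pairs (-0.17 to 0.29), and the closest library of another group had the same number for 4 of 12. With the replicate block 0 genes were lower at day 2, and at day 6 it gave 44 lower and 3 higher.

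Leaving out each library in turn gave 0 to 2 genes lower and 0 to 0 higher at day 2, 9 to 23 lower and 1 to 4 higher at day 4, and 38 to 49 lower and 2 to 3 higher at day 6. It gave 2 to 12 lower and 0 to 2 higher at day 4 than at day 2, 9 to 39 lower and 0 to 1 higher at day 6 than at day 4, and 34 to 51 called over the 4 groups. Depth limits Mrpl36 and Mrps36, and also Mrpl23, which had 195 counts over all 12 libraries. The number of 3 libraries per group limits all genes tested.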
